A study of Mus musculus with 16 samples.

Results

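Potassium channel genes were described here in an ATAC-seq comparison of non-neuroendocrine (non-NE) and neuroendocrine (NE) small cell lung cancer (SCLC) cells of the mouse. The genes were the 94 protein-coding genes of the basic GENCODE annotation whose symbol starts with Kcn, and a peak was given to the gene with the nearest protein-coding start site. Of the 80367 peaks that the authors listed as more open (opened) or less open (closed) in the GFPhigh state, past their limits on fold change and adjusted p, 702 lay nearest to a Kcn start site, and 83 of the 94 genes had at least 1 such peak. ATAC-seq reads open chromatin: the Tn5 transposase cuts accessible DNA and leaves sequencing adaptors there, so that reads pile up at promoters, enhancers and other open sites. The tumors grew in TKO;Hes1GFP/+ mice, in which the floxed Rb, p53 and p130 alleles were deleted in the lung by intratracheal Ad-CMV-Cre, a virus that drives Cre from a promoter active in many cell types. Mice were 8 to 12 weeks old at induction and of mixed gender, and the tumors of a mouse were pooled 6 to 7 months later. GFP came from the Hes1 locus, so that cells of both groups carried the reporter allele. Both groups came from mice given the same deletions, though recombination in the sorted cells cannot be checked in these files, and were sorted from the same tumors as CD24-positive cells without CD45, CD31 or TER-119. GFPhigh cells, which express the Notch target Hes1, were the non-NE group, and GFPneg cells were the NE group. Each group had 4 libraries from 3 mice, with 2 of the 4 pairs from 1 mouse, and the 8 libraries ran on 2 lanes each (16 runs).

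Potassium channels let potassium ions leave the cell and so hold or restore the negative membrane potential. Voltage-gated, calcium-activated and inwardly rectifying channels shape the firing of excitable cells, two-pore-domain channels carry the leak current at rest, and auxiliary subunits tune the pores. Pulmonary neuroendocrine cells, from which SCLC can arise, are excitable airway cells in which low oxygen closes potassium channels, and the depolarization that follows releases their stored transmitters. Many neuronal ion channel genes are also kept off in non-neuronal cells by REST, a repressor that binds the RE1 element.

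The Kcn peaks were mostly sites that were less accessible in GFPhigh cells. Of the 702 peaks, 504 were closed and 198 were opened in GFPhigh relative to GFPneg cells, which put the opened share at 28.2% (95% Wilson interval 25 to 31.6), beside 50.8% for all listed peaks. By gene, 32 of the 83 Kcn genes with a peak had closed peaks only, 11 had opened peaks only and 40 had both, where 21.7% and 36.9% of all 14587 genes with a listed peak had closed peaks only and opened peaks only. The median gene had 16.7% of its peaks opened among the Kcn genes and 66.7% among all genes. The contrast with the rest of the list was widest at start sites. Within 1 kb of their own start sites the Kcn genes had 75 closed and 20 opened peaks, an opened share of 21.1% (14.1 to 30.3), beside 74.3% for the peaks at protein-coding start sites in general. Farther than 1 kb from a start site the opened share was 29.3% (25.8 to 33.1), beside 47.3%. These are shares of the peaks that passed the authors' limits and say nothing of accessible sites that did not differ, and the intervals cover counting error only, since neighbouring peaks of 1 gene are not independent.

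**Figure D1:**
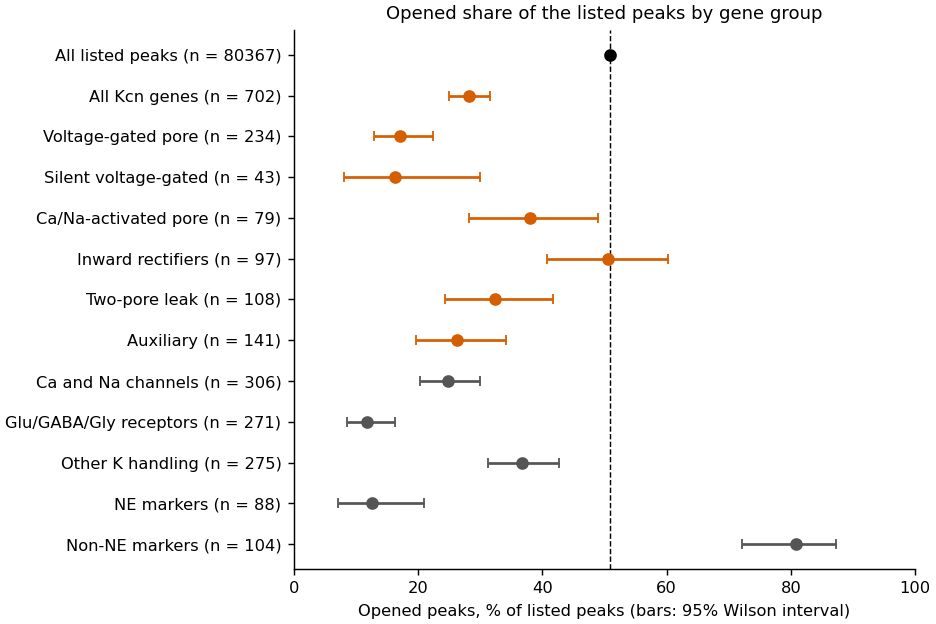
Share of listed ATAC-seq peaks that were opened in GFPhigh cells (x axis, percent), by gene group (y axis, with the number of peaks), with bars for the 95% Wilson interval and a dashed line at the 50.8% of all listed peaks. The interval of the inward rectifiers (50.5%) spans the line, and the other 5 potassium channel groups sit below it. The non-NE marker genes (80.8%) mark the high end. The glutamate, GABA and glycine receptor genes (11.8%) and the NE marker genes (12.5%) mark the low end.

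Marker genes of the sorted populations moved with the labels. At non-NE genes, Hes1, Yap1, Rest and Notch2 included, 84 of 104 peaks were opened and 10 of 11 genes had an opened promoter peak, whereas at NE genes such as Insm1, Scg2 and Neurod1 77 of 88 peaks were closed and 10 of 12 genes had a closed promoter peak. The closed peaks of the non-NE list lay at Hes1 (11 of its 37 peaks), Notch2 (6 of 19) and Scgb1a1 (3 of 15). Chga, with a closed promoter but 8 opened and 6 closed peaks in all, held 8 of the 11 opened peaks of the NE list. Of the listed peaks at genes of cells that the sort was meant to remove, 13 of 18 were opened at leukocyte genes, 14 of 62 at endothelial genes and 12 of 25 at fibroblast and smooth muscle genes. None of the 6 leukocyte genes had a promoter peak, 11 of the 13 opened leukocyte peaks lay nearest to Ptprc, and 23 of the 25 Cdh5 peaks were closed. Kdr had an opened promoter peak (mean normalized count 228) with 7 of 18 peaks opened. Col1a1 had 7 of 7 peaks opened, its promoter included (83.4), and both Acta2 peaks were opened, whereas all 5 Pdgfra peaks and 6 of 9 Dcn peaks were closed. Closed promoter peaks were found at Tek (15.5) and Col1a2 (11.4). The part of such cells in the Kcn peaks was not tested. Chromosome 11 stood apart, with 71.1% of its listed peaks opened. There 21 of 43 Kcn peaks were opened (48.8%), and on the other chromosomes 177 of 659 (26.9%). The deposited files hold 1 mean normalized count per peak over all libraries, so no value by library or mouse can be given and the difference between the groups was not tested again here.

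**Figure D2:**
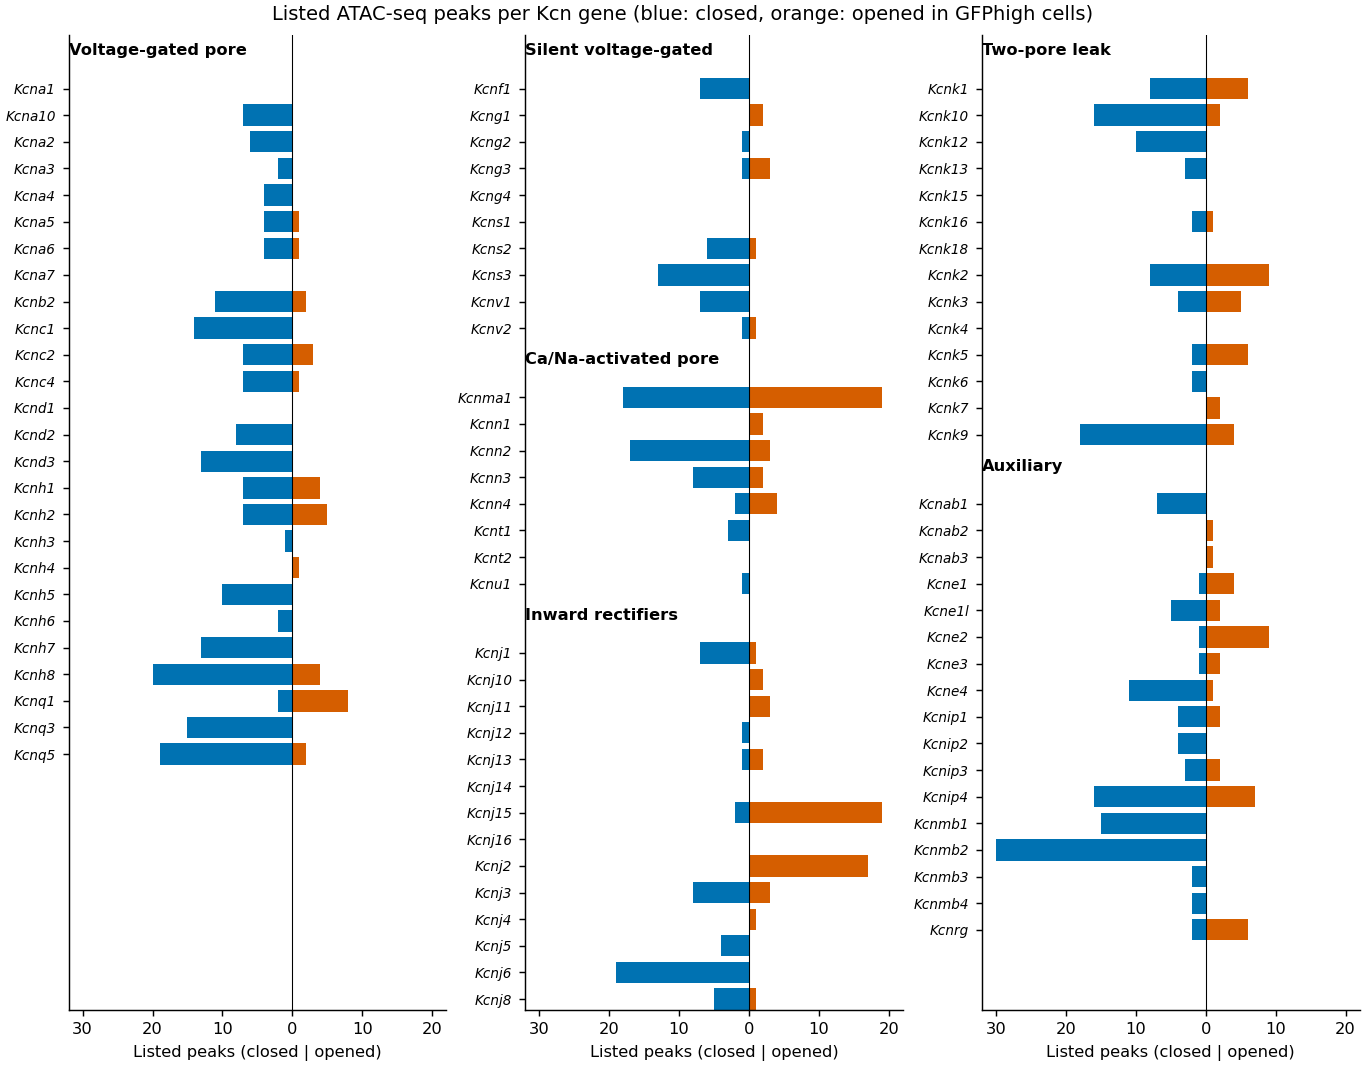
Number of listed peaks nearest to each Kcn gene named on the y axis, with closed peaks drawn to the left in blue and opened peaks to the right in orange, by role of the protein. Kcnmb2 (30), Kcnh8 (20), Kcnj6 (19) and Kcnq5 (19) had the most closed peaks, and Kcnj15 (19), Kcnma1 (19) and Kcnj2 (17) the most opened ones.

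The voltage-gated pore subunits, which open on depolarization and repolarize the membrane, made up the largest group. Of these 30 genes 27 had a listed peak, and 194 of their 234 peaks were closed, so that 17.1% (12.8 to 22.4) were opened. A closed promoter peak was found at 16 of the 30 genes and an opened one at 4, Kcnh2, Kcnh4 and Kcnq1 among them. Kcna1, Kcna7 and Kcnd1 had no listed peak.

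Among the Shaker-related Kcna genes, which set the excitability of axons, 27 of 29 peaks were closed. Kcna3, Kcna2 and Kcna10 lie side by side on chromosome 3, and the 15 peaks nearest to them, spread over 155 kb (chr3:107033818-107188764), were all closed. No other listed peak lay in that stretch. Their mean normalized counts, the authors' read counts per peak scaled for library depth and averaged over all libraries, ran from 6.84 to 170 with a median of 37.2. The highest was at the promoter of Kcna3 (chr3:107036031-107036610, 152 bp inside the gene), and Kcna2 had 3 closed promoter peaks. Kcna5 and Kcna6 on chromosome 6 had 4 closed peaks and 1 opened peak each, and Kcna4 had 4 closed peaks.

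The Kcnc genes encode fast channels that allow rapid firing. All 14 peaks of Kcnc1 were closed, over 120 kb, 11 of them outside the gene, with the highest mean normalized count at 148 and the highest promoter value at 90.2. Those from 51.4 to 115 kb downstream of the nearest Kcnc1 start site lay in the body of Sergef and belong to Kcnc1 by nearest start only. Kcnc4 had 7 closed peaks and 1 opened peak, with 3 of the closed ones at its promoter, and Kcnc2 had 7 closed and 3 opened peaks. The Kcnd genes carry the transient A-type current. Each of their 21 peaks was closed, 13 at Kcnd3 and 8 at Kcnd2, and both genes had closed promoter peaks, the strongest at Kcnd3 with a mean normalized count of 106.

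The Kcnq family divided by gene. Kcnq3 and Kcnq5 contribute to the neuronal M-current. All 15 peaks of Kcnq3 and 19 of the 21 of Kcnq5 were closed, and both genes had a closed promoter peak, at a highest mean normalized count of 174 for Kcnq3 and 341 for Kcnq5. At Kcnq5 4 of the closed peaks lay at its promoter, and its 2 opened peaks were neighbours. Kcnq1, whose product acts in heart muscle and in transporting epithelia, had 8 opened peaks against 2 closed ones, led by its promoter (chr7:143106839-143107496) at 257. Of its remaining opened peaks 1 lay 1.82 kb upstream of the start and the others up to 81.3 kb into the gene, where the next highest mean normalized counts were 185 and 137.

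Of the 74 peaks of the Kcnh genes (the ether-a-go-go family), 60 were closed. Kcnh8 had 24 peaks, 20 closed and 4 opened. The 18 peaks from the most distant upstream site, 371 kb away, to the middle of the gene were closed without a break, and the 4 opened ones, with 2 more closed ones among them, lay in the later part of the gene. Its promoter peak (chr17:52602080-52602777) had a mean normalized count of 326 and the peak 1.48 kb upstream of the start one of 426, the highest closed value of any Kcn peak outside a promoter. All 13 peaks of Kcnh7 and all 10 of Kcnh5 were closed, with 4 and 3 of them at promoters. At Kcnh1 the 4 peaks nearest to the start, between 6.89 and 16.6 kb inside the gene, were opened, and the 7 peaks from 50.5 to 286 kb inside were closed. Kcnh2, the channel that ends the cardiac action potential, had an opened promoter at an internal start site (mean normalized count 197) with 3 more opened peaks downstream of it, and 6 closed peaks in a row upstream of it within the gene. Kcnh3 had 1 closed peak, Kcnh6 had 2 closed peaks, and the only peak of Kcnh4 was opened. Of the 13 peaks of Kcnb2, a delayed rectifier, 11 were closed, and its closed promoter (chr1:15286342-15287148) had a mean normalized count of 625, the highest of the closed Kcn peaks.

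RE1 strings were found in few Kcn peaks. The string searched was TCAGCACC followed by 2 free bases and GGACAGC, on both strands, with up to 2 mismatches in the 15 fixed bases, within 200 bp around the peak centre. It was present in 3 of 198 opened Kcn peaks (1.52%, 0.517 to 4.36) and 3 of 504 closed ones (0.595%, 0.203 to 1.74), beside 0.277% of all opened and 0.195% of all closed peaks. Counts of 3 do not order these shares. The left part of the string alone, TCAGCACC without mismatches, was present in 8 opened Kcn peaks (4.04%, 2.06 to 7.77) and 9 closed ones (1.79%, 0.942 to 3.36), beside 1.16% and 1.82% of all peaks, and the right part, GGACAGC, in 3.54% and 5.75%, beside 3.6% and 4.98%. Peaks with at most 1 mismatch at Kcnh4, Kcnh2 and Kcnk9 are printed because each holds a nearly complete element for a repressor of neuronal genes, and capitals mark the string, which reads on the reverse strand in all of them. They are given on the forward strand of mm10.
Kcnh4, opened, chr11:100758951-100759085: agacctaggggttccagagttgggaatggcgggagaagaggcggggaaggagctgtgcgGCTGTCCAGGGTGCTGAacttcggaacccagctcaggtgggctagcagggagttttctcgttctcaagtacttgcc
Kcnh2, opened, chr5:24357554-24357764: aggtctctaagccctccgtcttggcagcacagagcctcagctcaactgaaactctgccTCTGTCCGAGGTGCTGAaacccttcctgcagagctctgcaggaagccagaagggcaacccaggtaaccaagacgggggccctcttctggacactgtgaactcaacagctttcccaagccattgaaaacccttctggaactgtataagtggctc
Kcnk9, opened, chr15:72568596-72568810: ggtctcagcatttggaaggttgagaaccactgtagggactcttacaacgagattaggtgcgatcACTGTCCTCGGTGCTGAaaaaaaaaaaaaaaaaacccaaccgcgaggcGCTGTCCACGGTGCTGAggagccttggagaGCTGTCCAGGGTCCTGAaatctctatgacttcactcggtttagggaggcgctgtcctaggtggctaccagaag

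The Kcnh4 peak held an exact match whose middle fell on the peak centre. It lay 722 bp inside the gene and had a mean normalized count of 13.7. The peak 6.05 kb upstream of the nearest Kcnh2 start site (mean normalized count 30.8) held 1 match with 1 mismatch. At Kcnk9, which encodes an acid-sensitive leak channel, an opened peak 22.4 kb upstream of the gene held 3 matches within its 215 bp, 1 exact and 2 with 1 mismatch each, at a mean normalized count of 13.8. Of the 3 closed peaks 1, not printed here, held an exact match, so that good matches were not limited to opened peaks. The closed peaks of Kcnc1 and Kcnj6 held a match with 2 mismatches, and the Kcnj6 match began at the last bases of a peak of 73 bp and ran beyond it. In the RefSeq promoters (GRCm38.p6, from 250 bases before to 50 after the start) of the 69 Kcn genes that could be matched, none of 94 sequences held the string, beside 70 of 32851 for all genes (0.213%). No match says only that these letters are not in these windows.

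The silent subunits pair with voltage-gated pores and modify them without forming channels of their own. Here 36 of 43 peaks were closed (16.3% opened, 8.12 to 30), no promoter was opened, and 3 of the 10 genes had a closed promoter. All 13 peaks of Kcns3 were closed, 3 of them at its promoter with a highest mean normalized count of 106. All 7 peaks of Kcnf1 and all 7 of Kcnv1 were closed. The strongest Kcnf1 peak (mean normalized count 221) lay 62.8 kb downstream of its start, and Kcnv1 had a closed promoter at 246 (chr15:45114138-45114931). Of the Kcnv1 peaks, however, 4 lay from 988 to 1509 kb upstream, distances at which nearest-start assignment is loose, and the other 3 lay within 65.6 kb of the start. Kcns2 had 6 closed peaks and 1 opened peak, Kcng3 had 3 opened peaks and 1 closed peak, both Kcng1 peaks were opened, Kcng2 had 1 closed peak and Kcnv2 had 1 of each. Kcng4 and Kcns1 had no listed peak.

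Calcium- and sodium-activated channels couple ion signals to the membrane potential, and 38% (28.1 to 49) of their 79 peaks were opened. Kcnma1, the large-conductance BK channel, had 37 listed peaks, the most of any Kcn gene, 19 opened and 18 closed. The directions were divided by place. Inside the gene body 17 of 24 peaks were closed, including the promoter peak at a mean normalized count of 21.7, whereas outside the body 12 of 13 were opened. The highest value, 361, was that of an opened peak in an intron of Lrmda, outside the Kcnma1 body. It lay 720 kb downstream of the nearest Kcnma1 start site, so that these distant peaks belong to Kcnma1 only by nearest protein-coding start. Kcnn2, a small-conductance SK channel of neurons, had 17 closed and 3 opened peaks, with 2 closed promoters at mean normalized counts of 410 and 143, and Kcnn3 had 8 closed and 2 opened peaks. Kcnn1 had 2 opened peaks, at 345 some 2.44 kb upstream and at 66.3 at an internal start site. Kcnn4, the intermediate-conductance channel of epithelial and immune cells, had 4 opened peaks from its promoter onwards and 2 closed ones farther in. The sodium-activated Kcnt1 had 3 closed peaks, Kcnu1 had 1 closed peak and Kcnt2 had none in the list.

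Inward rectifiers set the resting potential, and theirs was the group with the highest opened share, 49 of 97 peaks (50.5%, 40.7 to 60.3). That share joined genes with opposite directions. Kcnj2, a strong rectifier that stabilizes the resting potential, had 17 peaks, all opened, and Kcnj15 had 19 opened and 2 closed peaks, so that these genes held 36 of the 49 opened peaks. Kcnj3, Kcnj5, Kcnj6 and Kcnj9, which encode the G-protein-gated channels of neurons and heart, had 32 closed peaks and 3 opened ones, the latter all at Kcnj3, and all 4 genes had a closed promoter.

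Kcnj6 and Kcnj15 are neighbours on chromosome 16 and are transcribed away from each other. From chr16:94722038 to chr16:95152935 the list held 21 peaks, all closed, 19 of them nearest to Kcnj6 and 2 nearest to Kcnj15. From chr16:95161265 to chr16:95349809 it held 19 peaks, all opened and nearest to Kcnj15. The gap between the last closed and the first opened peak was 8.33 kb and lay upstream of both genes, nearer to Kcnj15. Closed peaks in the first stretch had a median mean normalized count of 33.2 (range 6.55 to 163), and opened peaks in the second one of 54.6 (range 7.74 to 400). The strongest of either side is printed as the 200 bp around its centre, forward strand of mm10, because these sites carry the highest values of a region that changed direction once. Capitals mark a forkhead string (TGTTTAC on either strand, 2 in Kcnj6 and 1 in Kcnj15), an E-box (CAGCTG, Kcnj6) and an NKX2 string (CACTTGA on the reverse strand, Kcnj15).
Kcnj6, closed, chr16:94827231-94827430: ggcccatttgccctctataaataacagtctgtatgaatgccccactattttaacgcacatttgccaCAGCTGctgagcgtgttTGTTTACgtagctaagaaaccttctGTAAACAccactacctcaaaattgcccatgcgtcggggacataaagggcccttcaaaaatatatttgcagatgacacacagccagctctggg
Kcnj15, opened, chr16:95332148-95332347: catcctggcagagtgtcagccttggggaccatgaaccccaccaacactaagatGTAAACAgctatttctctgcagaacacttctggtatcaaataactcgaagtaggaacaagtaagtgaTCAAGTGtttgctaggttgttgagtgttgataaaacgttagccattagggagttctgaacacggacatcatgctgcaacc
The Kcnj6 peak lies in an intron of Kcnj6, 29.3 kb from its nearest start site, and the Kcnj15 peak lies 74 kb downstream of the Kcnj15 start, outside coding genes. Forkhead strings were not particular to this region, and were present in 7.07% of opened and 5.75% of closed Kcn peaks, beside 6.84% and 9.71% of all listed peaks.

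**Figure D3:**
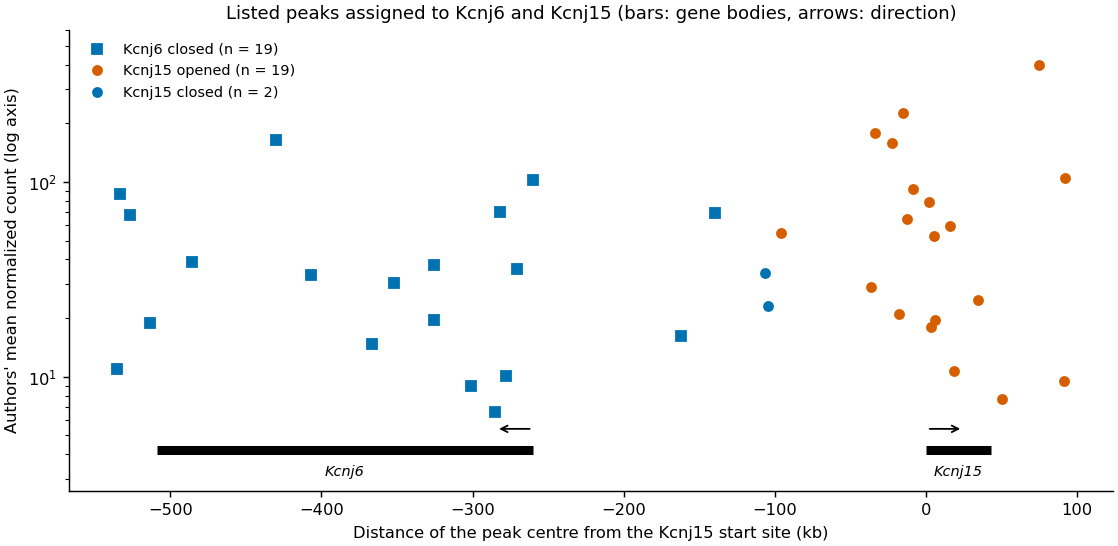
Listed peaks nearest to Kcnj6 (squares) and Kcnj15 (circles), with the distance of the peak centre from the Kcnj15 start site in kb (x axis) against the authors' mean normalized count (y axis, log scale), closed in blue and opened in orange, and gene bodies as black bars. The 21 closed peaks lie to the left and the 19 opened ones to the right of a gap of 8.33 kb.

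Kcnj2 had a strong opened promoter (chr11:111065723-111066249, mean normalized count 371) and opened peaks up to 769 kb downstream of its start, 16 of the 17 outside the gene. No other listed peak lay in that stretch of 771 kb. However, 12 of the 17 lay 258 kb or more from the start, where nearest-start assignment is loose, and 71.1% of all listed peaks of its chromosome, 11, were opened. Its neighbour Kcnj16 had no listed peak. Among the remaining inward rectifiers, Kcnj10, Kcnj11 and Kcnj4 had opened peaks only (2, 3 and 1), and the 2 promoter peaks of Kcnj13 were opened. The Kcnj11 peaks all lay within the body of Abcc8, 15.6 to 30.9 kb upstream of the Kcnj11 start. Kcnj8 had 5 closed peaks and 1 opened peak, with a closed promoter at 103, and its strongest closed peak (237) lay within the body of Abcc9, which encodes a partner subunit of the ATP-sensitive channel. Kcnj1, the renal outer medullary channel, had 7 closed peaks and 1 opened peak, Kcnj12 had 1 closed peak and Kcnj14 had none.

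For the two-pore-domain leak channels 35 of 108 peaks were opened (32.4%, 24.3 to 41.7). Closed promoters were found at Kcnk10, Kcnk12, Kcnk13 and Kcnk16 and opened ones at Kcnk3, Kcnk5 and Kcnk7. Kcnk9 had 18 closed and 4 opened peaks, the strongest a closed one 3.17 kb upstream of the start (mean normalized count 159), and 21 of the 22 lay outside the gene. Kcnk10 had 16 closed and 2 opened peaks, with 5 closed peaks at its promoters, the highest at 99.5. All 10 peaks of Kcnk12 and all 3 of Kcnk13, a related pair of channels, were closed. Kcnk2, a mechanosensitive relative of Kcnk10, had a block of 9 opened peaks in a row over 103 kb, from the middle of the gene to 3.25 kb upstream of it, with 3 closed peaks on the downstream side and 5 on the upstream side. Mean normalized counts in the opened block reached 228, and those of the flanking closed peaks reached 82.7. Kcnk1 had 6 opened and 8 closed peaks, with its highest values at opened peaks 1.41 kb and 4.8 kb inside the gene (124 and 112). Kcnk3 and Kcnk5 had mostly opened peaks, 5 of 9 and 6 of 8, with opened promoters at 146 and 91.1, and Kcnk7 had an opened promoter at 139. Both peaks of Kcnk6 were closed, Kcnk16 had 2 closed peaks and 1 opened peak, and Kcnk4, Kcnk15 and Kcnk18 had none.

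All 17 auxiliary and regulatory genes had a listed peak, and 37 of 141 peaks were opened (26.2%, 19.7 to 34.1). The Kcnmb genes encode the beta subunits that set the calcium sensitivity and gating of BK channels. All 49 of their peaks were closed, an opened share of 0% with an upper Wilson bound of 7.27%. Kcnmb2 alone had 30 of them, over 414 kb of chromosome 3 (chr3:31812627-32227057) in which no other listed peak lay. Inside the gene were 18 of the 30, and their mean normalized counts ran from 8.2 to 207 with a median of 18.4. With whole peaks searched, 8 of the 30 held the AP-1 string TGANTCA, where 29.9% of all closed peaks did. The strongest 2 of those peaks that are at most 300 bp wide are printed, forward strand of mm10, with that string in capitals, as examples of the closed sites of this gene.
Kcnmb2, closed, chr3:32226510-32226749: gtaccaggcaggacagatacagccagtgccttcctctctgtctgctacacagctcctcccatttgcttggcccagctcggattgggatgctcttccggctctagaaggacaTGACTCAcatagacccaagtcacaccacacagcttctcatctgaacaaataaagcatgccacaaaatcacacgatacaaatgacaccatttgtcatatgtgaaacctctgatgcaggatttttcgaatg
Kcnmb2, closed, chr3:31936736-31936997: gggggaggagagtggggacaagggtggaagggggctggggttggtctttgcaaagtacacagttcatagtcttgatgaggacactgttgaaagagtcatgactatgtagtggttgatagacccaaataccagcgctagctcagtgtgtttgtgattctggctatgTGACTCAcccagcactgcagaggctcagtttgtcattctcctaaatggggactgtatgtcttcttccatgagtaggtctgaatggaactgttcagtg
The first of these lies 70.5 kb from the nearest Kcnmb2 start site beyond the gene, and the second in an intron 34.2 kb from one. Kcnmb1 had 15 closed peaks over 83 kb, 3 of them at its promoter. It lies within the span of Kcnip1, so that its peaks cannot be told apart from peaks of that gene. Kcnmb3 and Kcnmb4 had 2 closed peaks each.

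The Kcnip genes encode calcium-binding partners of the A-type channels, and 27 of their 38 peaks were closed. Kcnip4, a gene of 1135 kb with several start sites, had 16 closed and 7 opened peaks and was the only Kcn gene with both a closed and an opened promoter peak. Its closed promoter peaks lay near the outermost start site, at mean normalized counts of 182, 50.4 and 33.5, and at an internal one (106), and the opened one (78) lay at another internal start site. The strongest of its opened peaks (297 and 198) were an intronic one 37.2 kb from a start site and one 82.2 kb upstream of the gene. The central 200 bp of the closed and of the opened internal promoter peak are printed, forward strand of mm10, since they set both directions side by side within 1 gene. Capitals mark an AP-1 string in the closed peak, and a TEAD string (CATTCC on the reverse strand) and an NKX2 string (reverse strand) in the opened one.
Kcnip4, closed, chr5:49285558-49285757: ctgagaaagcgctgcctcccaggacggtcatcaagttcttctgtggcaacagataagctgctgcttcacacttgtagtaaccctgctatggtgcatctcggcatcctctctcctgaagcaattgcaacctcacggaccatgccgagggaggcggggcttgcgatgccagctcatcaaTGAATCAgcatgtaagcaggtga
Kcnip4, opened, chr5:48890102-48890301: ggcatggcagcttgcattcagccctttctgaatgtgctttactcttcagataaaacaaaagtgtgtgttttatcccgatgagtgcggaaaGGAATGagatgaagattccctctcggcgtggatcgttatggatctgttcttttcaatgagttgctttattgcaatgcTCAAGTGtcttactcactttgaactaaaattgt
Kcnip1 had 4 closed and 2 opened peaks, Kcnip2 had 4 closed peaks and Kcnip3 had 3 closed and 2 opened peaks.

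The Kcne genes encode small single-pass partners of Kcnq1 and other pores, and 18 of their 37 peaks were opened. Kcne2 had 9 opened peaks and 1 closed peak, all upstream of the gene, and the highest mean normalized count was 169 at 24.2 kb. Kcne1, on the same chromosome, had 4 opened peaks and 1 closed peak. Kcne3 had opened promoter peaks at 84 and 22.2. Kcne4 went the other way, with 11 closed peaks and 1 opened peak, and Kcne1l had 5 closed and 2 opened peaks. The Kcnab genes encode cytoplasmic beta subunits. The only peaks of Kcnab2 and Kcnab3 were opened promoter peaks, and that of Kcnab2 (chr4:152477289-152478199) had the highest mean normalized count of any Kcn peak, 636. Its centre also lies in the body of the neighbouring gene Nphp4. Kcnab1 had 7 closed peaks, 1 at its promoter. At Kcnrg, a regulator of channel assembly, 6 of 8 peaks were opened, and the strongest 3 (567, 380 and 278) lay 41.1 to 74.9 kb downstream of the Kcnrg start, at start sites of Dleu2 and of another gene not annotated as protein-coding, so they belong to Kcnrg by nearest protein-coding start only. Of all Kcn peaks, 18 lay within 1 kb of the start site of a gene other than their own.

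Across all roles, 37 of the 94 Kcn genes (39.4%) had a closed promoter peak and 16 (17%) an opened one, where 8.41% and 26.5% of all 21951 protein-coding genes did. The 20 opened Kcn promoter peaks had a median mean normalized count of 81 (range 10 to 636), beside 169 for opened promoter peaks of all genes. The 75 closed ones had a median of 35.5 (range 10.4 to 625), beside 40.7. The opened promoter peaks with the highest values were among others those of Kcnab2, Kcnj2, Kcnq1, Kcnh2, Kcnk3, Kcnk7 and Kcnab3, from 636 down to 125, and the closed ones those of Kcnb2, Kcnn2, Kcnq5, Kcnh8, Kcnv1, Kcnh7, Kcnip4 and Kcnq3, from 625 down to 174. A mean over libraries of both groups does not give the level in either group, so these values rank peaks by how much signal they carried and not by how much they changed.

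**Figure D4:**
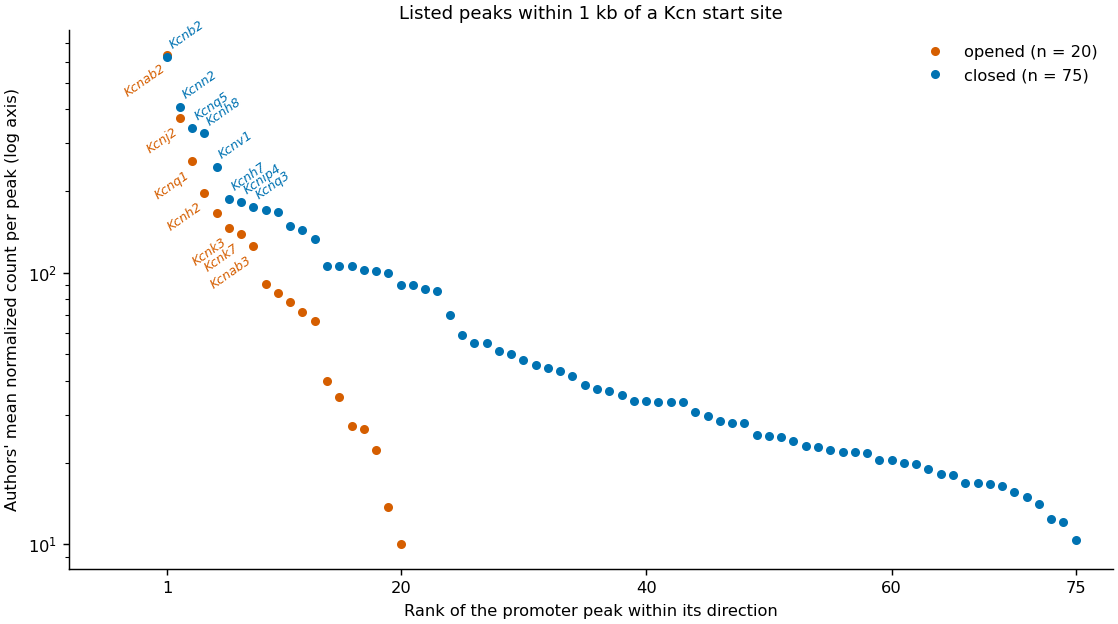
The 95 listed peaks within 1 kb of a Kcn start site, ranked within their direction (x axis), with the authors' mean normalized count per peak (y axis, log scale), opened in orange and closed in blue, and the highest of each direction named, apart from 1 opened peak left without a name. Kcnab2 (636, opened) and Kcnb2 (625, closed) stand highest, and the 20 opened peaks end at 10 and the 75 closed ones at 10.4.

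Neighbouring peaks of 1 gene mostly shared their direction. Of 619 pairs of adjacent peaks of the same Kcn gene 516 (83.4%) agreed in direction, and in the 40 genes with both directions it was 73.9%. Over all genes the shares were 74.8% and 66.3%, but a list as uneven in direction as the Kcn peaks gives more agreeing pairs by itself, so the sets cannot be compared by these shares. The 12 genes with the most peaks held 269 of the 702 (38.3%). Runs ranged from the 30 closed peaks of Kcnmb2, the 19 closed peaks of Kcnj6 and the 17 opened peaks of Kcnj2 to the 17 alternating runs of Kcnma1. Kcn genes had more listed peaks than other genes, at a median of 7 per gene with a peak beside 3, and they were longer, with a median length of 30.8 kb beside 17.4 kb. By position, 91 opened and 271 closed peaks lay in the body of their own gene, 19 and 50 in that of another protein-coding gene and 88 and 183 outside coding genes. Opened Kcn peaks had a median width of 305 bp and lay at a median of 27.4 kb from the start site, and closed ones measured 239 bp at 38.2 kb. The 5 widest were opened peaks of Kcnrg (1027 and 882 bp), Kcnj15 (972 bp) and Kcnab2 (911 bp) and a closed promoter peak of Kcnn2 (927 bp). For all listed peaks these values were 300 bp and 17.5 kb when opened and 248 bp and 42.4 kb when closed.

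**Figure D5:**
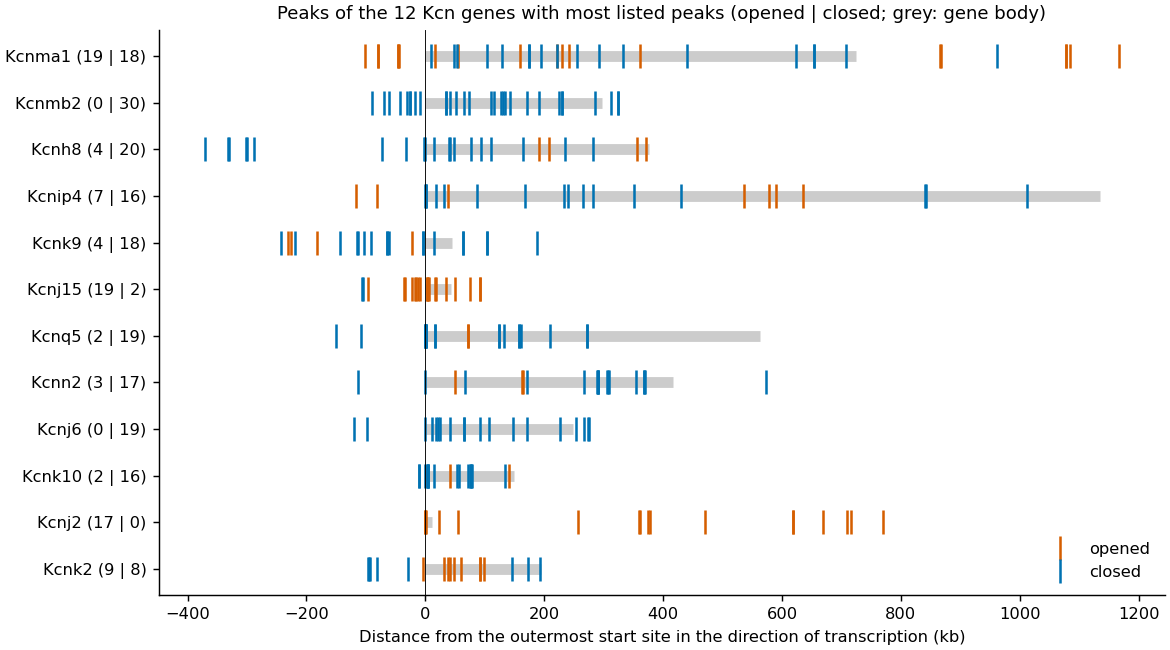
Listed peaks of the 12 Kcn genes with the most peaks, with opened and closed numbers beside each name (y axis), by distance in kb from the outermost start site in the direction of transcription (x axis), and gene bodies in grey. The peaks of Kcnmb2 and Kcnj6 are all closed, those of Kcnj2 all opened, and the 9 opened peaks of Kcnk2 form a block between closed ones.

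Short strings of transcription factors were counted in the central 200 bp of the Kcn peaks, on both strands and without mismatches, beside all listed peaks of the same direction. AP-1 strings (TGANTCA) were present in 26.6% (22.9 to 30.6) of closed Kcn peaks, beside 26.4%, and in 13.6% (9.54 to 19.1) of opened ones, beside 10.6%. The E-box CAGCTG was present in 19.6% (16.4 to 23.3) of closed Kcn peaks, beside 22.6%, and in 11.1% (7.45 to 16.2) of opened ones, beside 12%. TEAD strings (CATTCC), the sites of the partners of YAP1, were present in 12.1% (8.28 to 17.4) of opened Kcn peaks, beside 18.2%, and in 7.94% (5.88 to 10.6) of closed ones, beside 8.77%. NKX2 strings (CACTTGA) were present in 11.1% (7.45 to 16.2) of opened Kcn peaks, beside 6.68%, and in 4.17% (2.74 to 6.29) of closed ones, beside 5.04%. NFI half-sites (TGCCAA) were present in 14.6% of opened and 14.5% of closed Kcn peaks, beside 18% and 13.4%, and the RBPJ string (TTTCCCA), the site of the Notch effector, in 4.55% and 5.56%, beside 7.01% and 4.8%. Strings of the insulator protein CTCF were present in 0.505% and 0.595%, beside 1.34% and 0.501%. The window is wider than 34.3% of Kcn peaks and 30.9% of all peaks, and a match is a description and not a bound site.

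Other gene families of excitable cells were read the same way. At 40 genes of voltage-gated calcium and sodium channels 24.8% (20.3 to 30) of 306 peaks were opened, with 16 closed and 7 opened promoters. At 52 genes of glutamate, GABA and glycine receptors 11.8% (8.49 to 16.2) of 271 peaks were opened, with 19 closed and 4 opened promoters. At 33 other genes of potassium handling 36.7% (31.2 to 42.6) of 275 peaks were opened, with 8 closed and 7 opened promoters. Within the last list, the partners of the A-type and Kcna channels had mostly closed peaks, 22 of 23 at Dpp6, 16 of 16 at Dpp10 and 43 of 44 at Cntnap2. Among the gamma subunits of BK-type channels, Lrrc26 and Lrrc52 had opened peaks only (3 and 6). Lrrc55 went the other way, with 5 of 6 peaks closed, a promoter peak included, and Lrrc38 had no listed peak. The sodium pump subunit Atp1b3 had opened peaks only (8). The chloride cotransporters Slc12a2 and Slc12a7, which move potassium with chloride, had 14 of 18 and 8 of 9 peaks opened.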

How the data were processed

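ATAC-seq was run on 4 GFPhigh and 4 GFPneg libraries from 3 mice. Per the labels and the study's methods, reads were trimmed, aligned to mm10 with Bowtie2 2.3.4.1 and deduplicated, narrow peaks were called with MACS2 from reads shifted around the Tn5 insertion, peaks of all samples were merged, and reads were counted in each merged peak. The authors' group comparison was made in DESeq2 1.28.1. Whether lanes or the pairs of 1 mouse were summed is not stated. The authors deposited an opened and a closed list with, per peak, a signal value (the mean normalized count over all libraries) and the log2 fold change, standard error, statistic and p-values of their comparison. Those comparison values were not used here, apart from the list a peak stands in. The depth per library is unknown, no value has an SD or n, and no difference between the groups was tested. Per-sample columns left unused numbered 0.

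Positions are 1-based on mm10. No peak ran past a chromosome end of the GRCm38.p6 sequence that was read here. Start sites, genes and exons came from GENCODE M21 (basic). Each peak centre was given to the nearest protein-coding start site, a promoter peak lay within 1 kb of one, and gene bodies were the annotated gene spans. Shares carry 95% Wilson intervals. Assignment and string search were checked on simulated data. Python 3.11.15, numpy 2.4.6, pandas 2.3.3, pysam 0.24.0, statsmodels 0.14.6 and matplotlib 3.10.9 were used.

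The members, role groups, compared lists and strings were chosen with earlier results of these data known. Values were given for the 12 genes with most peaks, the 8 strongest opened and 8 strongest closed promoter peaks, genes with both kinds of promoter peak, the gene with most peaks of each role, peaks with an RE1 string and the 5 widest peaks. Gene clusters and runs, other genes with values, the other potassium-handling genes singled out and the printed windows were chosen after the values were seen. The alternatives changed the assignment of peaks to genes, the promoter distance, the lowest mean count, merging, the string window and chromosome 11. A few genes and 1 sequence are not reported here.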

Additional observations from a re-analysis of the deposited data

How the results depend on the processing

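The opened share of the Kcn peaks, 28.2%, was 25.6% for peaks inside Kcn gene bodies, 28.8% within 100 kb of a start site, 28.9% with 1 start site per gene, 28.4% with neighbouring peaks merged and 26.9% without chromosome 11, all within its interval. With a mean normalized count of at least 20 it was 32%, just above that interval. The number of Kcn genes with a promoter peak stayed within 1.5 times under a promoter distance of 3 kb (23 opened, 41 closed), a mean count of at least 20 (15 and 35) and without chromosome 11 (13 and 35). The promoter share of Kcn peaks moved from 10.1% to 17.7% for opened and from 14.9% to 18.3% for closed peaks with promoters of 3 kb, which by construction takes in more peaks, and was 14.1% and 16.9% with start sites of any gene type. Of 22 shares of peaks with a string, 6 moved beyond their interval when whole peaks were searched and none when peaks near a start site were left out. No paired analysis was possible because the files hold no value per library, and replicates could not be left out for the same reason. A stricter fold change or adjusted p was not tried, since these are values of the authors' comparison. Depth limits the weakest peaks, and sites that did not pass the authors' limits were not analysed here.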
